A study of Mus musculus with 9 samples.

Results

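The 6 genes Wfs1, Stard5, Slco5a1, Perp, Ttc39c and Lin7a were chosen because their mean signal in the nucleus accumbens of the mouse was above that in both other brain regions measured, genes of neuropeptide signalling being left out. They are 6 of 14208 genes tested. The nucleus accumbens (NAc) is the ventral part of the striatum, and it was measured beside the dorsal striatum (dStr) and the bed nucleus of the stria terminalis, here BNST, which belongs to the extended amygdala. Each region had 3 samples, labelled as biological replicates, from mice that were anaesthetised with isoflurane and decapitated without other treatment named in the labels. Strain, sex and age were not given in the sources used here. Tissue was punched from semi-frozen coronal slices, and the RNA of each sample was amplified in 2 cycles and read on 1 Affymetrix Mouse430_2 array, on which a gene is represented by 1 or more probe sets. Because the choice used the NAc levels, the differences between NAc and the other regions are given for these genes as a description, with no test. The contrast between BNST and dStr was not part of the choice and was tested. Whether the replicates came from separate animals is not stated, so that p-values measure the spread between these samples, and in tissue punches fewer cells of a type and less RNA per cell cannot be told apart.

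The 6 genes belong to different families. Wfs1 encodes wolframin, a membrane protein of the endoplasmic reticulum that takes part in calcium handling and in the response to unfolded proteins, and its loss causes Wolfram syndrome; in the rodent forebrain it is known from the ventral striatum, the extended amygdala, hippocampal area CA1 and the superficial cortex. Stard5 encodes a soluble lipid-binding protein with a START domain, the fold that carries cholesterol and other lipids between membranes. Slco5a1 encodes a member of the organic anion transporter family. Perp encodes a tetraspan membrane protein of the PMP22 family that is a target of p53 and a component of desmosomes. Lin7a encodes a small scaffold protein with an L27 and a PDZ domain, which with Cask and Mint1 (Apba1) forms a complex that places receptors and channels at synapses. Ttc39c encodes a protein with tetratricopeptide repeats, a fold that binds other proteins.

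RefSeq promoter windows (GRCm38.p6) were found for 3 of the 6 genes. Those of Wfs1 and Stard5 are shown because Wfs1 had the largest difference between NAc and dStr of the 6 genes and Stard5 the largest smaller difference, that is, the larger margin over whichever region came second. The 250 bases before the start are printed 5′ to 3′ on the gene's strand, for Wfs1 chr5:36988983-36989232 (minus strand) and for Stard5 chr7:83631767-83632016 (plus strand). Capitals mark matches, on either strand, to GGGCGG (the binding letters of Sp1), to CCAAT (those of NF-Y) and to TGACG (part of the cAMP response element).
Wfs1: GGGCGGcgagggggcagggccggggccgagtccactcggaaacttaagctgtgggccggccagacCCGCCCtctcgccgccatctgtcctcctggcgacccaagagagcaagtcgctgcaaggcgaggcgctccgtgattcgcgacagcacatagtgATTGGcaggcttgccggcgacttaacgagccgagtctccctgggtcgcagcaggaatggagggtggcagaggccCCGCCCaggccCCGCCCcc
Stard5: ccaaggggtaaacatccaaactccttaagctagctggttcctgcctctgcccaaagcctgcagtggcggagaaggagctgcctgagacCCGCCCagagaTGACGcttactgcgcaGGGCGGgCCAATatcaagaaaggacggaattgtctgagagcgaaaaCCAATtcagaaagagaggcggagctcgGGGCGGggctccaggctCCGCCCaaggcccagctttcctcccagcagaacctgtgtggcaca
In the whole windows of 300 bases, which run 50 bases past the start, GGGCGG was found 4 times in each of the 2 genes, and 35.7% of all 32851 promoter windows hold it. CCAAT was found 1 time for Wfs1 and 2 times for Stard5 and is held by 37.4% of windows. TGACG, held by 20.8%, was found 1 time for Stard5 and 0 times for Wfs1. Lin7a had 2 start sites, with 1 match to GGGCGG each, and the first also had 1 match to CCAAT and 2 to TGACG. Neither TATAAA (13.6% of windows), CACGTG (7.15%), the full cAMP response element TGACGTCA (1.79%, which contains TGACG) nor the ER stress element (0.119%, which contains CCAAT) was found in the windows of these 3 genes. These matches describe letters and not sites.

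Signals are the authors' linear probe-set intensities. Array medians ran from 93.9 to 102, and a common floor of 14.97 was reached by 2270 to 2698 probe sets on each array. BNST 1 correlated most closely with an array of another region, NAc 3 (r = 0.964, taken over genes, which do not replicate each other independently). For the other 8 arrays the closest array was one of their own region, at 0.937 for NAc 1 and 0.964 to 0.981 for the rest. The number of arrays limits the precision. Log2 differences and folds are on the scale of log2(intensity + 16), which makes folds of dim genes smaller than ratios of their intensities, and a probe set was kept if its intensity exceeded an array's own 40th percentile on 3 or more of the 9 arrays. Each gene was read from 1 kept probe set, that of the highest mean.

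A NAc mean above both other regions was found for 3541 of the 14208 genes, or 24.9%, and in 166 genes, or 1.17%, all 3 NAc arrays lay above all 6 others. All 6 genes are among these 166. Since the 6 genes were chosen on their NAc levels, this describes the choice and supports nothing further. The share of 1.17% also depends on the number of arrays, as fewer arrays are easier to part. Without NAc 3 the 166 genes became 655. The smaller of a gene's differences from BNST and from dStr was 1.16 on the log2 scale for Stard5, 1.01 for Slco5a1, 0.95 for Perp, 0.91 for Wfs1, 0.80 for Ttc39c and 0.64 for Lin7a. It was 1.96 for Cartpt, the gene of the CART peptide, 1.29 for Ramp3, which encodes a partner protein of calcitonin family receptors, and 0.98 for Pdyn, the prodynorphin gene. These genes of peptide signalling were left out of the choice. With the smaller difference as the measure, 22 further genes stood above Lin7a, among them Trhr, the receptor gene of thyrotropin-releasing hormone, at 1.48, and Crym at 0.88. Crym is no gene of peptide signalling, so the choice as stated does not by itself set the 6 genes apart.

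**Figure D1:**
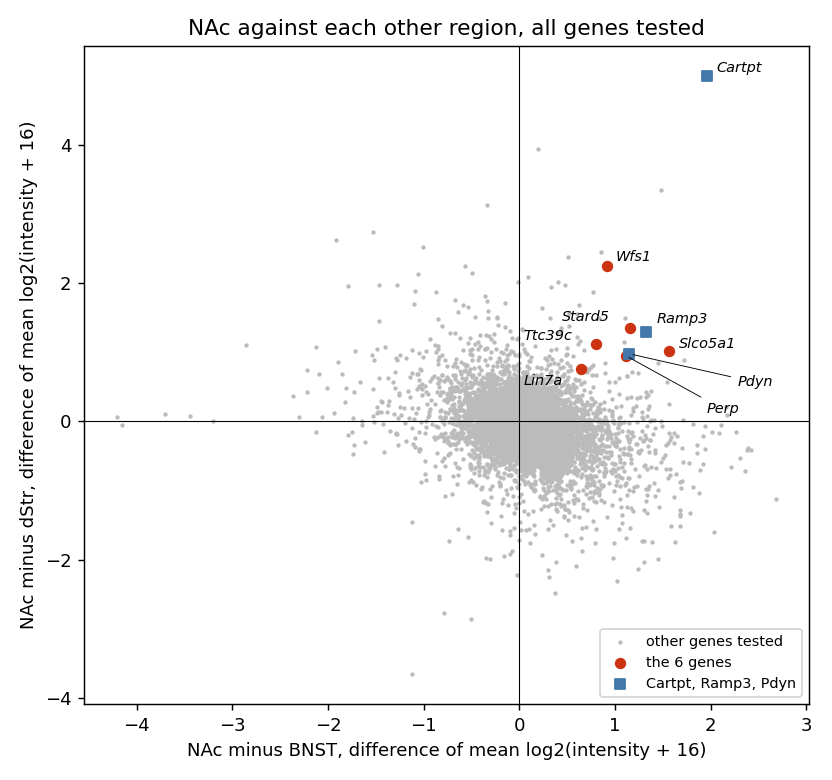
Difference between NAc and BNST (horizontal axis) and between NAc and dStr (vertical axis) in mean log2(intensity + 16) for the 14208 genes tested, 1 point per gene. The 6 genes (red) and Cartpt, Ramp3 and Pdyn (blue squares) lie in the sparse upper right corner, with Wfs1 at 0.91 and 2.25 and Lin7a, closest to the bulk, at 0.64 and 0.76.

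Wfs1 was graded across the regions. Its intensity was 2731, 2875 and 2335 on NAc arrays 1, 2 and 3, then 1789.6, 1067 and 1411 in BNST, and 527, 632 and 481 in dStr. The 3 groups of arrays did not overlap, with BNST between the striatal regions. The means were 2647 ± 279.7 (SD, n = 3 arrays) in NAc, 1422 ± 362 in BNST and 546 ± 77.3 in dStr, so that NAc was 1.88-fold above BNST and 4.75-fold above dStr. BNST was the least even group, with a coefficient of variation of 25.4% against 10.6% in NAc and 14.1% in dStr.

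Stard5, read by a probe set whose name ends in _s_at, the suffix for probes shared with other transcripts, stood at 524, 319 and 285 on the NAc arrays. It stood at 132, 158 and 174 in BNST and at 145, 155 and 103 in dStr. All NAc arrays were above all others, BNST and dStr overlapped, and NAc 1 was far above NAc 2 and NAc 3. NAc averaged 376 ± 129 (SD, n = 3), against 155 ± 21.1 in BNST and 134 ± 27.5 in dStr, which is 2.23-fold and 2.55-fold. Without NAc 1 the log2 differences were 0.90 from BNST and 1.10 from dStr, in place of 1.16 and 1.35.

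Slco5a1 was dim outside NAc. It stood at 214, 206 and 119 on the NAc arrays, at 46.0, 51.8 and 48.3 in BNST and at 82.7, 77.3 and 75.3 in dStr. NAc 3 was the low array of its region but still above every dStr array, and no BNST array reached the 40th percentile of its own array, which was 71.5 to 73.4 there. NAc averaged 179.8 ± 52.9 (SD, n = 3), 2.95-fold above BNST at 48.7 ± 2.93 and 2.02-fold above dStr at 78.4 ± 3.81.

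Perp was dim in BNST and dStr. Its intensity was 126, 128 and 77.0 on the NAc arrays, 40.4, 40.1 and 43.9 in BNST and 35.2, 59.5 and 52.6 in dStr. Only the 3 NAc arrays exceeded their own 40th percentile, so Perp passed the filter through the region it was chosen for. NAc averaged 111 ± 29.1 (SD, n = 3), 2.16-fold above BNST (41.5 ± 2.15) and 1.93-fold above dStr (49.1 ± 12.5).

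Lin7a, the synaptic scaffold gene, had the smallest margin. It stood at 1211, 1294 and 1133 on the NAc arrays, at 820.0, 664 and 835 in BNST and at 722, 747 and 656 in dStr. The NAc arrays were above all others, and BNST and dStr overlapped. NAc averaged 1213 ± 80.3 (SD, n = 3), 1.56-fold above BNST (773 ± 95.0) and 1.7-fold above dStr (708 ± 47.4).

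Ttc39c was the most even of the 6 genes in NAc. It stood at 212, 201 and 221 on the NAc arrays, at 119, 97.7 and 130.2 in BNST and at 100.1, 78.7 and 88.1 in dStr. NAc averaged 211 ± 10.3 (SD, n = 3), 1.74-fold above BNST (116 ± 16.5) and 2.17-fold above dStr (89.0 ± 10.7). BNST 2 lay below dStr 1, so those regions overlapped.

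**Figure D2:**
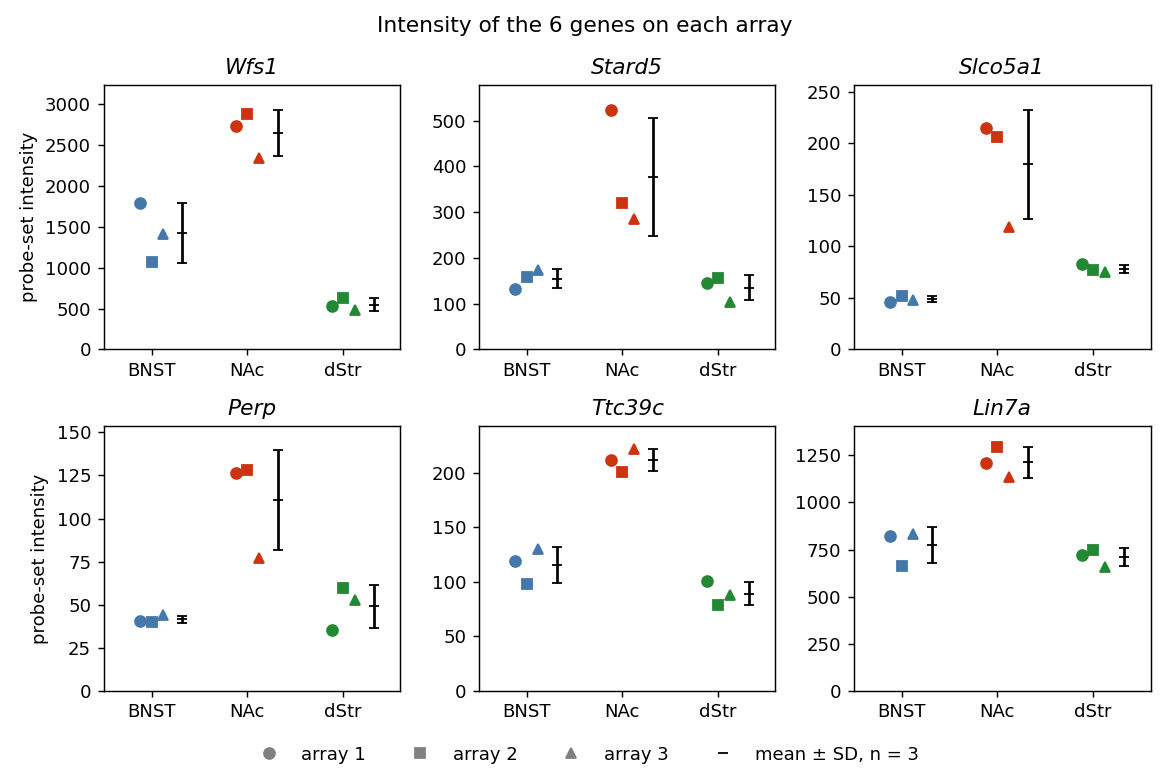
Linear probe-set intensity (vertical axes, each from 0, with a scale of its own) of the 6 genes on each array; the marker shape gives the replicate number and the bar the mean ± SD of 3 arrays. The NAc arrays are the highest 3 in every panel, BNST lies between the others for Wfs1 and below dStr for Slco5a1, and NAc 1 stands alone at 524 for Stard5.

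The 3 NAc arrays did not give the 6 genes alike. The coefficient of variation in NAc was 4.86% for Ttc39c, 6.62% for Lin7a and 10.6% for Wfs1, but 26.3% for Perp, 29.4% for Slco5a1 and 34.4% for Stard5. NAc 3 was the lowest NAc array for 5 of the 6 genes, with deviations from the region's mean of -0.50 on the log2 scale for Slco5a1 and -0.42 for Perp, whereas Ttc39c was highest there, at 0.06. Across the 9 arrays the 15 pairs of genes had Pearson's r from 0.529 (Wfs1 with Slco5a1) to 0.947 (Ttc39c with Lin7a). After each region's mean was removed, r ran from -0.471 (Perp with Ttc39c) to 0.875 (Wfs1 with Lin7a), with a median of 0.268. The points share arrays and the first set also shares the choice of genes, so these values are descriptions. Other measures also differed among the NAc arrays, in different orders. The mean level of 11 oligodendrocyte markers was 9.30, 9.91 and 10.2 on NAc arrays 1, 2 and 3 (log2 scale), and for 110 genes of ribosomal proteins and the respiratory chain it was 9.90, 10.2 and 10.5. That of 21 medium spiny neuron markers was lowest on NAc 3, at 10.58, 10.51 and 10.21. For 9 ventral striatum markers it was lowest on NAc 1, at 8.51, 9.29 and 9.06. Their part in the spread of these genes was not tested.

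The array carries 14 probe sets for these genes, and most gave the same order. The NAc mean was the highest in 13 of them, and in 11 all NAc arrays were above all others. The filter kept 10, of which 9 had all NAc arrays above. Wfs1 and Perp had 1 probe set each. A second probe set of Slco5a1, removed as too dim, stood at 70.5, 84.0 and 73.6 in NAc and at most at 40.5 in BNST, but dStr 1 came to 68.4, close under the lowest NAc array. Both other probe sets of Ttc39c had all NAc arrays on top. In one, NAc averaged 126 ± 14.3 (SD, n = 3) against 86.2 ± 3.27 in BNST and 86.5 ± 5.77 in dStr. In the other, NAc averaged 109 ± 29.6, BNST 67.3 ± 10.4 and dStr 32.8 ± 0.77, and the lowest NAc array, at 80.1, barely exceeded the highest BNST array, at 79.0.

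Stard5 and Lin7a were less uniform among their probe sets. A dim probe set of Stard5, removed by the filter, stood at 257, 103 and 61.1 in NAc, against 18.1 to 43.3 on the 6 other arrays, with the same high value on NAc 1 as the probe set that stands for the gene. The other kept one differed less, at 149 ± 25.7 (SD, n = 3) in NAc, 111 ± 10.97 in BNST and 119 ± 19.9 in dStr, and its NAc and dStr arrays overlapped. The remaining one was highest in dStr, at 47.3 ± 26.1 in NAc, 46.9 ± 7.53 in BNST and 56.4 ± 7.42 in dStr, and reached no array's 40th percentile. For Lin7a the other kept probe set gave 251, 344 and 264 in NAc, above the 175 to 203 of dStr and the 106 to 176 of BNST. The last, removed by the filter, stood at 43.5 on NAc 1, among the BNST arrays, and at 94.5 and 84.7 on the other NAc arrays.

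**Figure D3:**
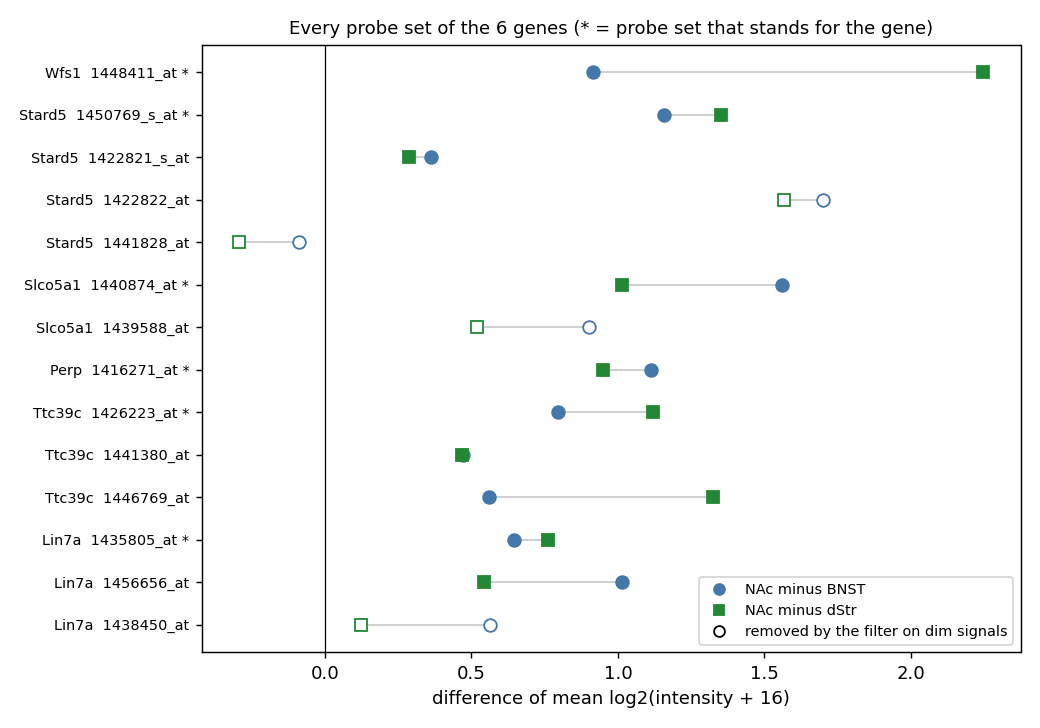
Difference of NAc from BNST (blue circles) and from dStr (green squares) in mean log2(intensity + 16) for each of the 14 probe sets; open symbols were removed by the filter on dim signals and an asterisk marks the probe set that stands for its gene. All but one dim Stard5 probe set lie right of 0 in both comparisons, and the Stard5 probe sets spread from -0.29 to 1.70.

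BNST and dStr, which were not set against each other in the choice, differed past the test for 1 of the 6 genes, where 14.3% of all genes passed (4.99% higher and 9.35% lower in BNST). Wfs1 was 2.52-fold higher in BNST than in dStr, a log2 difference of 1.33 (SE 0.19, limma adjusted p = 0.00142, higher in all 3 BNST arrays than in any dStr array, as in 14.9% of genes). Under 20 other settings of the processing its adjusted p ran from 0.000221 to 0.0104. BNST 1, the BNST array with the highest Wfs1 intensity, was also the one with the highest mean of 21 markers of medium spiny neurons, at 9.44 on the log2 scale against 8.22 on BNST 2 and 8.86 on BNST 3. Without BNST 1 the Wfs1 difference was 1.15 (adjusted p = 0.00237). Leaving out NAc 3, the array BNST 1 lay closest to, cannot move a difference between BNST and dStr. It changes only the estimated spread and the adjustment (adjusted p = 0.00185), so it does not probe that likeness.

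Slco5a1 went the other way without passing. It was 1.46-fold lower in BNST, where no array exceeded its own 40th percentile, a log2 difference of -0.55 with a 95% interval, not adjusted for the number of genes, of -0.97 to -0.12 (limma adjusted p = 0.0875). All 3 BNST arrays lay below all dStr arrays, as in 21.6% of genes. The adjusted p was 0.014 when the 6 arrays of these regions were fitted alone and 0.0123 without NAc 3, the array that spread the NAc values. For Ttc39c the difference was 0.32 (interval 0.01 to 0.63, adjusted p = 0.157), for Stard5 0.19 (-0.31 to 0.70, adjusted p = 0.62) and for Lin7a 0.12 (-0.18 to 0.42, adjusted p = 0.611). For those 3 genes neither a difference nor its absence was shown. Perp exceeded the 40th percentile on no array of BNST or dStr, so its fitted value compares signals below that level in both regions and is not read.

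**Figure D4:**
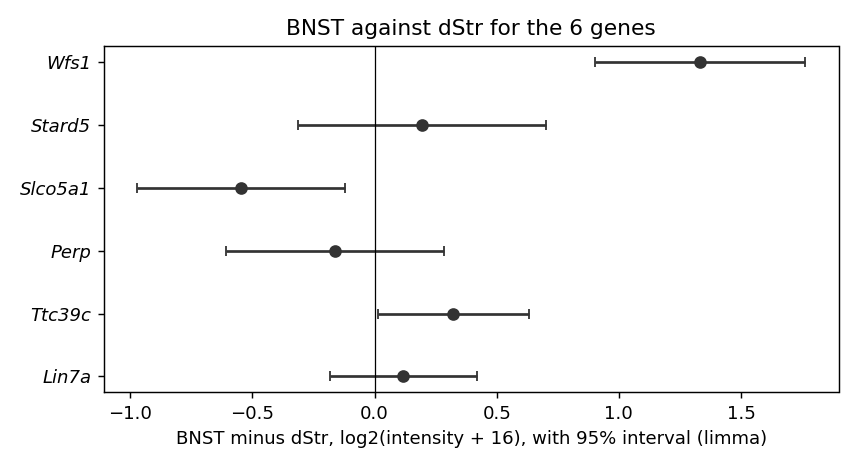
Log2 difference between BNST and dStr for the 6 genes (points), with limma's 95% interval not adjusted for the number of genes. Wfs1 stands apart at 1.33, the Slco5a1 interval lies below 0, that of Ttc39c starts just above 0, and the other 3 intervals include 0, among them that of Perp, whose signal was below the 40th percentile in both regions.

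Single probe sets gave the same contrast in more detail. In a fit of all 29293 kept probe sets, a setting chosen after the data were seen, 13.6% passed between BNST and dStr and 2 of the 10 kept probe sets of these genes did. They were that of Wfs1 and the last-named probe set of Ttc39c. The latter was 0.76 higher in BNST on the log2 scale (SE 0.18, limma adjusted p = 0.0185). Its BNST arrays read 63.7, 59.1 and 79.0 and its dStr arrays 32.5, 33.7 and 32.3, without overlap. Of these arrays only BNST 3 exceeded its own 40th percentile, and the probe set passed the filter through BNST 3 and the NAc arrays. The call thus compares mostly signals below that level, and no fold is given for it. The remaining Ttc39c probe set had a difference close to 0 (adjusted p = 0.993), so the probe sets of Ttc39c did not give the same relation between BNST and dStr. Those of Lin7a also parted, at 0.12 and -0.47 (adjusted p = 0.614 and 0.13).

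Likeness to each gene was ranked by Pearson's r of log2(intensity + 16) over the 9 arrays among the 7104 genes above the median mean level. The pattern of Wfs1 was most like that of Cartpt, at r = 0.994. Cartpt averaged 1200.5 ± 186 (SD, n = 3) in NAc, 306 ± 111 in BNST and 22.3 ± 8.16 in dStr, a steeper version of the same order. Mpped1 (0.973) and Lrrn3 (0.97) followed. Stard5 was most like Syn2, the synapsin II gene (0.947), Pdyn (0.938) and Senp7 (0.92). Slco5a1 was most like Vhl (0.96), Carhsp1 (0.935) and Pdyn (0.935). Perp was most like Marcks, which encodes a substrate of protein kinase C (0.959), Map2k1 (0.942) and Drp2 (0.929). Ttc39c was most like Lin7a itself (0.947), then Mgme1 (0.946) and Sar1a (0.926). Lin7a was most like Hpcal4, a neuronal calcium sensor gene (0.974), Mpped1 (0.946) and Celf4 (0.943). Pdyn thus stood near both Stard5 and Slco5a1, and Mpped1 near both Wfs1 and Lin7a. The arrays share regions and scaling, and with 9 points and 7104 genes high values of r arise easily, so these are descriptions.

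The relatives and partners of the 6 genes were tested in all 3 comparisons. Of 141 listed genes of their families and pathways, 4 passed between NAc and BNST (2.84%), where 2.27% of all genes did (1.47% higher and 0.802% lower in NAc). Between NAc and dStr 1 passed (0.709%), where 2.07% of all genes did (0.957% higher and 1.11% lower), and between BNST and dStr 18 passed (12.8%; 14.3% of all genes). These shares rest on single arrays. Without 1 array the calls over all genes between NAc and BNST, 323 in number, became 52 (without BNST 3) to 584 (without BNST 1), and the 294 between NAc and dStr became 90 (without dStr 3) to 422 (without NAc 1). Of all calls between NAc and BNST 64.7% were higher in NAc, or 53% after quantile normalisation. Among those between BNST and dStr 34.8% were higher in BNST, or 52.1% after that normalisation, which also moved the median difference of all genes from -0.06 to 0.06. A NAc mean above both other regions was found for 26 of the 141 (18.4%; 24.9% of all genes). All NAc arrays lay above all others in 1 (0.709%; 1.17% of all genes), the serotonin receptor gene Htr2c. It stood at 1356, 1599.5 and 1203 in NAc, against at most 1104 in BNST and 1179 in dStr, and passed in neither comparison (limma adjusted p of 0.265 and 0.284).

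Lin7a differed in its order of regions from its paralog Lin7b, which rose from BNST through NAc to dStr. Lin7b stood at 309, 205 and 266 in BNST, at 422, 536 and 410.1 in NAc and at 832, 849 and 844 in dStr, without overlap between any of the regions. It was 3.15-fold lower in BNST than in dStr (log2 difference -1.65, SE 0.17, limma adjusted p = 0.000174, and at most 0.00196 under 20 other settings). NAc was 1.72-fold above BNST (adjusted p = 0.0387) and 1.83-fold below dStr (adjusted p = 0.024). The first of these calls ended without BNST 2 (0.154), BNST 3 (0.155), NAc 1 (0.0521), NAc 2 (0.157) or any dStr array (0.0751 to 0.0765), and the second without BNST 3 (0.0522), NAc 3 (0.0827) or any dStr array (0.101 to 0.115). The first also ended with no filter (0.0633), the mean of probe sets (0.0566) or the pair's arrays alone (0.157). With the replicate number as a block both ended (0.106 and 0.0889). Of its other probe sets, 2 gave the same order and 1 was nearly level, at 192, 196 and 215 in BNST, NAc and dStr. Lin7c averaged 298 ± 36.4 (SD, n = 3) in BNST, 382 ± 117 in NAc and 294 ± 70.3 in dStr and passed in no comparison (limma adjusted p of 0.719 between NAc and BNST and 0.625 between NAc and dStr). Whether the paralogs differ from Lin7a in the size of these differences was not tested.

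**Figure D5:**
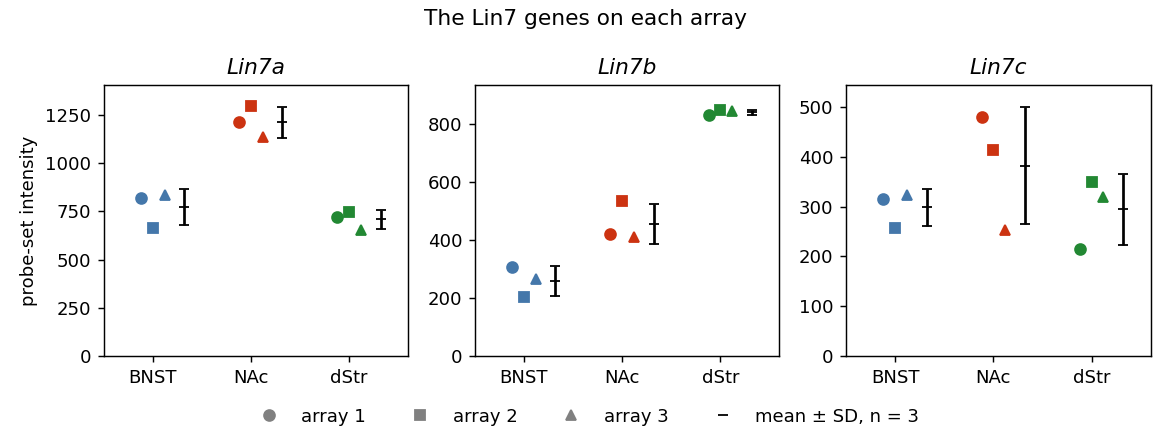
Linear probe-set intensity (vertical axes, each from 0, with a scale of its own) of Lin7a, Lin7b and Lin7c on each array; the marker shape gives the replicate number and the bar the mean ± SD of 3 arrays. Lin7a is highest in NAc, Lin7b climbs from 260.0 in BNST to 842 in dStr, and the Lin7c arrays of the 3 regions overlap.

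Of 26 tested scaffold partners of Lin7a, its paralogs included, 1 was higher and 6 lower in BNST than in dStr, which is 26.9% called, where 14.3% of all genes were (4.99% higher and 9.35% lower). Cask and Apba1 (Mint1), the partners of Lin7a in the complex named above, passed in no comparison. Cask averaged 359, 366 and 404 in BNST, NAc and dStr, with limma adjusted p of 0.968 between NAc and BNST. Apba1 averaged 552, 523 and 595, with limma adjusted p of 0.933 between NAc and BNST, 0.712 between NAc and dStr and 0.72 between BNST and dStr. Apba2 (Mint2), a paralog of Apba1, was 4.11-fold higher in BNST, at 364 against 79.0. Lower in BNST were Lin7b, the L27 scaffold gene Mpp6 (2.38-fold; adjusted p = 0.097 without dStr 3) and Baiap2, which encodes a postsynaptic actin regulator (1.9-fold). Kcnj2, an inward rectifier potassium channel gene, also passed as lower, but its BNST arrays, at 35.0, 26.5 and 27.7, all lay below their own 40th percentiles, against 113, 127 and 122 in dStr, and no fold is given for it. Dlg1 and Grin2b were the other partners that passed. Between NAc and BNST 15.4% of the partners were called, where 2.27% of all genes were. Baiap2 (1.73-fold), Lin7b and Mpp6 (1.69-fold) were higher in NAc and Apba2 lower (2.07-fold). Each of these 4 calls ended without several of the single arrays and under several other settings, with adjusted p up to 0.249. The median log2 difference of the partners was 0.16 between NAc and BNST, where that of all genes was 0.05, and -0.18 between NAc and dStr, where it was -0.02.

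The calls in the families of the other genes are given beside the shares over all genes, which were 2.27% between NAc and BNST, 2.07% between NAc and dStr and 14.3% between BNST and dStr. Among 31 genes of the response to unfolded proteins, the pathway of Wfs1, limma called 0 between NAc and BNST (0 at an unadjusted p under 0.05) and 0 between NAc and dStr (4 unadjusted), and medians were 0.02 and -0.04. Hspa5, the chaperone BiP, averaged 1171 in NAc, 1365 in BNST and 1147 in dStr, and Cisd2, the second gene of Wolfram syndrome, 286, 240.4 and 371. Pdia6, a protein disulfide isomerase gene, was the 1 gene (3.23%) called between BNST and dStr (1.54-fold higher in BNST, adjusted p = 0.041), a call that ended without BNST 2 (0.119), BNST 3 (0.137), NAc 2 (0.0505), dStr 1 (0.112), dStr 2 (0.108) or dStr 3 (0.106). That call also ended with no filter (0.0531), the mean of probe sets (0.116) or the replicate block (0.0773). Among 13 genes listed for the START domain family, Stard3nl included, limma called 0 in both comparisons with NAc (3 and 4 unadjusted). Between BNST and dStr 3 were called (23.1%). Dlc1 was 1.76-fold higher and Stard10 2.24-fold and Stard3 1.62-fold lower in BNST. The call of Dlc1 ended with the mean of its probe sets (0.227), and that of Stard3 without BNST 2 (0.0652), BNST 3 (0.0693), dStr 1 (0.0623) or dStr 3 (0.0585). Stard4, like Stard5 a soluble sterol carrier, averaged 260.4 in NAc, 257 in BNST and 276 in dStr.

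Among 26 genes of cholesterol synthesis and transport limma called 0 in both comparisons with NAc (2 and 3 unadjusted). For this and the following lists the shares over all genes were again 2.27% (NAc and BNST) and 2.07% (NAc and dStr). At those shares 0 calls in lists this short say little. Between BNST and dStr 4 were called (15.4%; 14.3% of all genes). Sqle, which encodes squalene epoxidase (1.66-fold), and Apoe (1.72-fold) were higher in BNST and Cyp46a1, the cholesterol 24-hydroxylase gene (3.36-fold), and Hsd17b7 (1.57-fold) lower. The calls of Apoe, Cyp46a1 and Hsd17b7 ended without BNST 2 (0.0517, 0.0863 and 0.0783), BNST 3 (0.0663, 0.0879 and 0.155), dStr 1 (0.0639, 0.0675 and 0.138) or dStr 3 (0.0529, 0.0799 and 0.0784), and those of the last 2 also without dStr 2 (0.0623 and 0.078). With the replicate block the calls of Cyp46a1 (0.0569) and Hsd17b7 (0.0766) ended too. That of Hsd17b7 also ended with the mean of probe sets (0.0604). Among 11 other Slco genes limma called 0 in all 3 comparisons (0, 0 and 1 unadjusted). Their log2 differences between NAc and the other regions stayed between -0.23 and 0.32. Slco5a1 was chosen for its NAc level, so its values of 1.56 and 1.01 are set beside these only as a description. Among 18 p53 targets and regulators limma called 0 in both comparisons with NAc (0 and 1 unadjusted). Between BNST and dStr 2 were called (11.1%). Sesn2 was 1.39-fold higher and Zmat3 2.03-fold lower in BNST. The call of Sesn2 ended without any BNST array (0.0848 to 0.139), NAc 2 (0.053), dStr 1 (0.167) or dStr 3 (0.154), and that of Zmat3 without BNST 2 (0.0678), BNST 3 (0.0697), dStr 2 (0.0629) or dStr 3 (0.0537). That of Sesn2 also ended with a pseudocount of 64 (0.0551) or the replicate block (0.107). Among 15 desmosome and PMP22 family genes limma called 0 in both comparisons with NAc (2 and 2 unadjusted). Cldn12, the 1 gene called between BNST and dStr (6.67%), was 1.88-fold lower in BNST than in dStr (adjusted p = 0.0126; 0.054 without BNST 2). Ttc39b, the 1 relative of Ttc39c tested, averaged 87.4 in NAc, 82.5 in BNST and 89.0 in dStr and passed in no comparison.

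The tissue labels were set against marker genes, for which the shares over all genes are again 2.27%, 2.07% and 14.3%. Of 21 medium spiny neuron markers, 15 were higher in NAc than in BNST, 4 lower in NAc than in dStr and 21 lower in BNST than in dStr. Their mean log2 level ran from 8.22 to 9.44 on the BNST arrays, 10.2 to 10.6 in NAc and 11.1 to 11.3 in dStr. Of 9 ventral striatum markers, 6 were higher in NAc than in dStr, among them Cartpt and Dlk1, and 8 higher in BNST than in dStr. Between NAc and BNST 1 of them, Cartpt, was higher and 2 lower. Of 12 BNST markers 7 were lower in NAc than in BNST, among them Crh, and 7 were higher in BNST than in dStr. Crh was also the 1 of them called between NAc and dStr. It was higher in NAc, at 133 against 19.2 in dStr, which is near the floor (limma adjusted p = 0.0222). Markers of neighbouring tissue and of other cells moved with BNST too. Of 7 thalamus and habenula markers 3 were lower in NAc than in BNST and 3 higher in BNST than in dStr. These were Slc17a6, Prkcd and Calb2, and both Prkcd and Calb2 are also among the BNST markers. Of 9 septum and hypothalamus markers 2, Trpc4 and Prdm16, were lower in NAc than in BNST and higher in BNST than in dStr. Of 9 markers of ependyma and choroid plexus 7 were lower in NAc than in BNST and 7 higher in BNST than in dStr. Their mean log2 level ran from 7.76 to 8.61 in BNST, 5.94 to 5.98 in NAc and 5.83 to 6.02 in dStr. Of 12 astrocyte markers 3 were lower in NAc than in BNST and 6 higher in BNST than in dStr. Of 8 microglia markers 6 were lower in BNST than in dStr, and of 9 endothelial markers 1 was. Oligodendrocyte, microglia and endothelial markers (28 genes) gave 0 calls by limma in either comparison with NAc (4 of them unadjusted in each), and cholinergic and local interneuron markers (7 genes) gave 0 in all 3 comparisons (1, 0 and 1 unadjusted). Cortex was represented by 8 tested markers, of which 1 was lower in NAc than in BNST, 0 passed between NAc and dStr (0 unadjusted) and 1 was higher and 1 lower in BNST than in dStr. The defining cortical genes Slc17a7, at 41.9 to 61.8 on all arrays, Neurod6, at the floor on 8 of 9, and Tbr1, at the floor on 7, were too dim to be tested. The part of cell composition in the levels of the 6 genes was not tested.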

How the data were processed

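The authors deposited 1 table of linear probe-set intensity values for 45037 probe sets on 9 arrays. Summarisation software, scaling and genome build were not given in the sources used here, and no scan batches were known. Symbols came from the platform annotation of the value table: 34945 probe sets had 1 symbol, 932 several and 9160 none, the latter 2 kinds being left out of gene tests. Intensities were taken as log2(intensity + 16), with the deposited scaling kept. Probe sets above an array's own 40th percentile on at least 3 of 9 arrays were kept, and the one of highest mean represented its gene (14208 genes). One linear model over 9 arrays with a mean per region (6 residual degrees of freedom) was fitted with limma 3.58.1 in R 4.3.3, with 2-sided moderated tests and Benjamini-Hochberg adjustment over all genes per comparison at 0.05. The procedure was tested on simulated data.

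The 6 genes, the gene lists and the tests were chosen with earlier results of these data known. Text genes were the 6 with all probe sets, up to 4 passing genes per list, comparison and direction, the 3 genes most like each of the 6, and the genes highest in NAc; Htr2c, Hspa5, Cisd2, Cask, Apba1, Stard4, Dlg1, Grin2b, Trhr, Crym and the marker examples were chosen after their values were seen. The alternatives tried were quantile and median scaling, no or a stricter filter, pseudocounts of 1 and 64, other choices of probe set, a trended robust prior, a replicate block, the arrays of a pair alone and leaving out each array. Gene levels are never compared between probe sets.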

Additional observations from a re-analysis of the deposited data

How the results depend on the processing

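The 6 genes stayed higher in NAc than in both other regions under every alternative in which they could be fitted. They were chosen on these levels, and all their NAc arrays lay above all others. Leaving out an array or changing the pseudocount could therefore not turn the order, and this supports nothing further. Perp was lost to the filter at the 60th percentile and without any 1 NAc array, Slco5a1 at the 60th percentile, and Stard5 with unsuffixed probe sets. The log2 difference from BNST ran from 0.47 (Lin7a, quantile normalisation) to 1.82 (Slco5a1, pseudocount 1) and that from dStr from 0.62 (Perp, pseudocount 64) to 2.35 (Wfs1). With the mean of probe sets, Lin7a turned from 0.12 to -0.18 between BNST and dStr (adjusted p = 0.417), as its kept probe sets differ in sign. The number of the 6 genes passing between BNST and dStr became 2 with the arrays of the pair alone and ran from 1 to 2 without single arrays (2 without NAc 3).

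The count of all genes passing between NAc and BNST, 323, was 207 with no filter, 198 with a replicate block, 69 with the pair's arrays alone and 52 (without BNST 3) to 584 (without BNST 1) without single arrays. That between NAc and dStr, 294, was 183 with the block and 90 (without dStr 3) to 422 (without NAc 1), and that between BNST and dStr, 2038, was 1076 (without BNST 3) to 2691 (without NAc 1). The 166 genes with all NAc arrays on top became 188 (without BNST 2) to 655 (without NAc 3), as fewer arrays are easier to part. Same-numbered arrays of different regions did not deviate alike throughout (2 of 9 such pairs had a correlation of deviations over 0.1, range -0.517 to 0.263). Pairs of unlike number reached 0.421 (BNST 2 with NAc 1). With 3 arrays a region, these correlations cannot show whether same-numbered samples came from the same animal. With the block, Wfs1 kept its call between BNST and dStr (adjusted p = 0.00585). Intensities near the floor of 14.97 limit what can be said of Perp and of Slco5a1 in BNST.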

Other observations

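Some genes outside the 6 also had NAc means well above both other regions. Htr4, a serotonin receptor gene, stood at 81.9, 172 and 92.9 on the NAc arrays, against 32.6 to 55.3 in BNST and 30.7 to 50.6 in dStr. Olfm3, which encodes a secreted olfactomedin, stood at 602, 1100.1 and 861 in NAc and at most at 485 elsewhere. Crym, which encodes the thyroid hormone-binding protein mu-crystallin, stood at 4163, 4331 and 3579 in NAc, with 683 on BNST 2 against 1614 and 1591 on the other BNST arrays. Trhr stood at 984, 403 and 126 in NAc, the last value below BNST 2 at 145. These genes were named after their values were seen.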
